A study of Setaria viridis with 32 samples.

Results

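The 4 loci described here, *Sevir.5G089300*, *Sevir.1G121800*, *Sevir.2G379800* and *Sevir.3G015500*, belong to the 16 loci that the study's gene list assigns to the hexose transporter family of *Setaria viridis*, a small millet relative used as a model of C4 grasses. They are 4 of the 38334 loci counted. The loci were picked by name, with their transcript levels and stage profiles already known, so that levels and changes between stages are given as a description without a test. In A.10, *Sevir.5G089300*, *Sevir.2G379800* and *Sevir.1G121800* had the highest stage means of the family. Of these, *Sevir.1G121800* had the lowest (log2 FPKM 3.79 ± 0.07, SD, n = 4, at anthesis), and the next locus of the family, *Sevir.7G156700*, reached 3.67 ± 0.20. *Sevir.3G015500* ranked 13 of 15 on the same scale. The deposited files do not pair locus identifiers with gene names, so the family assignment rests on the study's list.

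Hexose transporters of plants are membrane proteins that take up glucose, fructose and related monosaccharides, mostly together with protons. In a developing cereal grain, sucrose arriving in the phloem can be split in the cell wall space by cell wall invertase. Hexose transporters can then carry the released glucose and fructose into cells, where they feed growth, respiration and starch synthesis.

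RNA came from whole seed heads, harvested at 50% emergence, anthesis, 8 DAA and 16 DAA (days after anthesis). Plants were of the ecotypes A.10, the reference for most work on the species, and ME034V, which is used for transformation, and all were untreated and grown in the same chamber conditions. Each of the 8 combinations of ecotype and stage had 4 replicates, each a pool of 4 plants, giving 32 libraries. Levels are the deposited log2 FPKM (fragments per kilobase of locus, scaled to library depth), scaled within each ecotype, and comparisons between ecotypes use counts of all 32 libraries scaled together by TMM, given as CPM (counts of a locus per 1000000 counts of its library, as scaled).

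The libraries held between 4557079 and 21175874 counts (median 8178992). A set of 22 starch synthase, branching enzyme and ADP-glucose pyrophosphorylase loci, taken as a check of grain filling, had median summed CPM of 1617 and 1534 at the early stages of A.10 against 12305 and 11113 at 8 and 16 DAA. In ME034V the medians were 1445, 1438, 8753 and 8884. Of the 22 loci, 16 were called higher at 8 and 16 DAA than at the early stages in A.10 and 14 in ME034V (adjusted p under 0.05 in edgeR). Of all loci, 41.5% and 34.2% were. ME034V 16 DAA replicate 3 stood apart from its group. Its mean correlation with the other 3 libraries was 0.945, the lowest of the 32 libraries, and it lay far from those 3 at 6.56% of loci, where 30 other libraries did so at 0.811% to 3.06%. The exception was ME034V 50% emergence replicate 1, with 5.8%. The starch loci of ME034V 16 DAA replicate 3 summed to 4602 CPM, against 8685 to 9320 CPM in the other 3. Several results that rest on this library are given with and without it. Family sums and correlations over the 32 libraries always include it. Markers of other tissues of the head were not tested. In whole heads, a lower transcript level cannot be told apart from a smaller share of the cells that hold the transcript.

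In the *S. viridis* v2.1 annotation, *Sevir.5G089300* lies on chromosome 5 from 7239670 to 7245544 on the plus strand. *Sevir.1G121800* lies on chromosome 1 from 10572317 to 10579709, also on the plus strand. *Sevir.2G379800* is on the plus strand of chromosome 2 from 43063401 to 43065847, and *Sevir.3G015500* is on the minus strand of chromosome 3 from 883790 to 886509. None of the 4 overlaps another locus. *Sevir.3G015500* directly abuts its right neighbour, however, with a gap of 0 bp, and fragments were counted without strand. Counts cover the whole locus, introns and untranslated regions included, and the locus lengths are 5875, 7393, 2447 and 2720 bp. Levels of different loci are compared per length, in log2 FPKM or CPM per kilobase, and some orders are also given in CPM. Because the length used includes introns, orders, ranks and shares between loci depend on it, to an extent not known here.

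*Sevir.5G089300* had the highest mean level of the family at every stage of A.10 and at the first 3 stages of ME034V, and its level was higher after anthesis. In A.10 the 4 libraries had log2 FPKM of 4.05, 3.97, 4.05 and 3.85 at 50% emergence and 3.91, 3.94, 4.03 and 4.15 at anthesis. They had 4.65, 4.93, 4.86 and 4.84 at 8 DAA and 4.96, 4.88, 4.98 and 5.19 at 16 DAA. Every library of the late stages thus lay above every library of the early stages, whereas the 2 stages within each pair overlapped. Late and early libraries were apart in the same way at 39.6% of all loci in A.10 and 30.8% in ME034V, and because the profiles were known, nothing is read from this. The log2 fold change between the late stages (mean of 8 and 16 DAA) and the early stages (mean of 50% emergence and anthesis) was 0.92 (SE 0.06), a fold of 1.89. Most of it fell between anthesis and 8 DAA (0.81, SE 0.08), with 0.03 (SE 0.08) before and 0.18 (SE 0.08) after.

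In ME034V, *Sevir.5G089300* had log2 FPKM of 3.98, 3.75, 3.66 and 3.61 at 50% emergence and 3.84, 3.89, 3.87 and 4.25 at anthesis. At 8 DAA the values were 4.43, 4.57, 4.38 and 4.38, and at 16 DAA they were 4.65, 4.55, 4.72 and 4.55. Early and late libraries were again apart, and the late minus early log2 fold change was 0.66 (SE 0.07). At 16 DAA the locus stood at percentile 93.5 of all loci in the A.10 table and 90.6 in the ME034V table, from 84.4 and 81.0 at 50% emergence.

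*Sevir.1G121800* was steady across development. Its A.10 libraries had log2 FPKM of 3.75, 3.73, 3.56 and 3.52 at 50% emergence, 3.74, 3.81, 3.88 and 3.74 at anthesis, 3.52, 3.60, 3.70 and 3.65 at 8 DAA, and 3.72, 3.80, 3.66 and 3.89 at 16 DAA. The stage means spanned 0.18, and of neighbouring stages anthesis and 8 DAA did not overlap, as at 56% of all loci. The late minus early log2 fold change in A.10 was -0.03 (SE 0.05), with an approximate 95% interval from -0.12 to 0.07, on TMM scaling. With library totals in its place the value was -0.24, a scaling that shifted the median of all loci by -0.21. In ME034V, 15 of the 16 libraries lay between 3.52 and 3.85, and ME034V 16 DAA replicate 3 reached 4.61. The late minus early change there was 0.16 (SE 0.12), and 0.02 (SE 0.07) without that library. Among the 4 loci it was the most even over stages, and it ranked 2 or 3 in the family in every group.

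*Sevir.2G379800* had a low level before anthesis and was among the highest of the family at 16 DAA. The A.10 libraries had log2 FPKM of 2.19, 2.01, 1.03 and 1.08 at 50% emergence and 1.85, 2.14, 1.96 and 2.56 at anthesis. They had 2.70, 3.20, 3.61 and 3.70 at 8 DAA and 4.29, 4.40, 4.06 and 4.34 at 16 DAA. From anthesis on, each stage of A.10 lay wholly above the one before it, and from 8 to 16 DAA the libraries were apart at 24.1% of all loci. Log2 fold changes were 0.41 (SE 0.27), 1.19 (SE 0.24) and 0.94 (SE 0.22) over the 3 steps, and the late minus early value was 1.86 (SE 0.17), a fold of 3.63. At 50% emergence the A.10 libraries fell in pairs, replicates 1 and 2 about 1 unit above replicates 3 and 4. Replicates 1 and 2 were also the deeper libraries, with 12386386 and 10710201 counts in all, against 4557079 and 5488801 in replicates 3 and 4. Whether depth had a part in this split was not tested.

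In ME034V, *Sevir.2G379800* had log2 FPKM of 1.40, 1.67, 1.55 and 0.99 at 50% emergence and 2.32, 2.42, 1.91 and 1.82 at anthesis. The values were 3.76, 4.13, 3.55 and 4.48 at 8 DAA and 5.08, 5.21, 3.78 and 5.14 at 16 DAA. The 16 DAA group overlapped with 8 DAA only through replicate 3, and 13.1% of all loci were apart in this step. The late minus early log2 fold change was 2.72 (SE 0.20), a fold of 6.59, and 2.84 (SE 0.14) without that library. With it the 16 DAA mean was 4.80 ± 0.68 (SD, n = 4), and without it 5.14 ± 0.06 (SD, n = 3). The rank of the locus in the family went from 9 at 50% emergence to 2 in A.10 and 1 in ME034V at 16 DAA.

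*Sevir.3G015500* showed the opposite profile, being near its highest level up to anthesis and close to the detection limit afterwards. In A.10 it was counted 53, 51, 17 and 32 times at 50% emergence and 22, 36, 47 and 62 times at anthesis. At 8 DAA the counts were 4, 2, 0 and 2, and at 16 DAA they were 2, 3, 1 and 4. The replicate with no count held 7828341 counts in all, which allows up to 0.415 CPM, on counting error alone. In log2 FPKM the stage means were 0.73 ± 0.25, 1.08 ± 0.25, -2.71 ± 0.61 and -2.51 ± 0.29 (SD, n = 4), and all early libraries lay above all late ones. The log2 fold change from anthesis to 8 DAA was -4.53 (SE 0.34), and the late minus early value was -4.28 (SE 0.24). With so few late counts, these sizes depend on the small constant that edgeR adds, and the values are rough.

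In ME034V, *Sevir.3G015500* was counted 54, 64, 41 and 49 times at 50% emergence and 37, 33, 46 and 153 times at anthesis. The count of 153 came from the most deeply sequenced library, which in log2 FPKM (1.32) was near the others of its group (0.64 to 1.10). At 8 DAA the counts were 5, 4, 6 and 9, and at 16 DAA they were 6, 5, 1 and 10, the single count belonging to replicate 3. Stage means were 1.04 ± 0.26, 1.03 ± 0.29, -1.58 ± 0.39 and -1.61 ± 0.85 log2 FPKM (SD, n = 4). Without replicate 3 the 16 DAA mean was -1.19 ± 0.14 (SD, n = 3). The late minus early log2 fold change was -2.83 (SE 0.24), and -2.67 (SE 0.20) without replicate 3 of 16 DAA. In A.10 and ME034V alike, the locus was the lowest ranked of the family at 8 and 16 DAA.

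**Figure D1:**
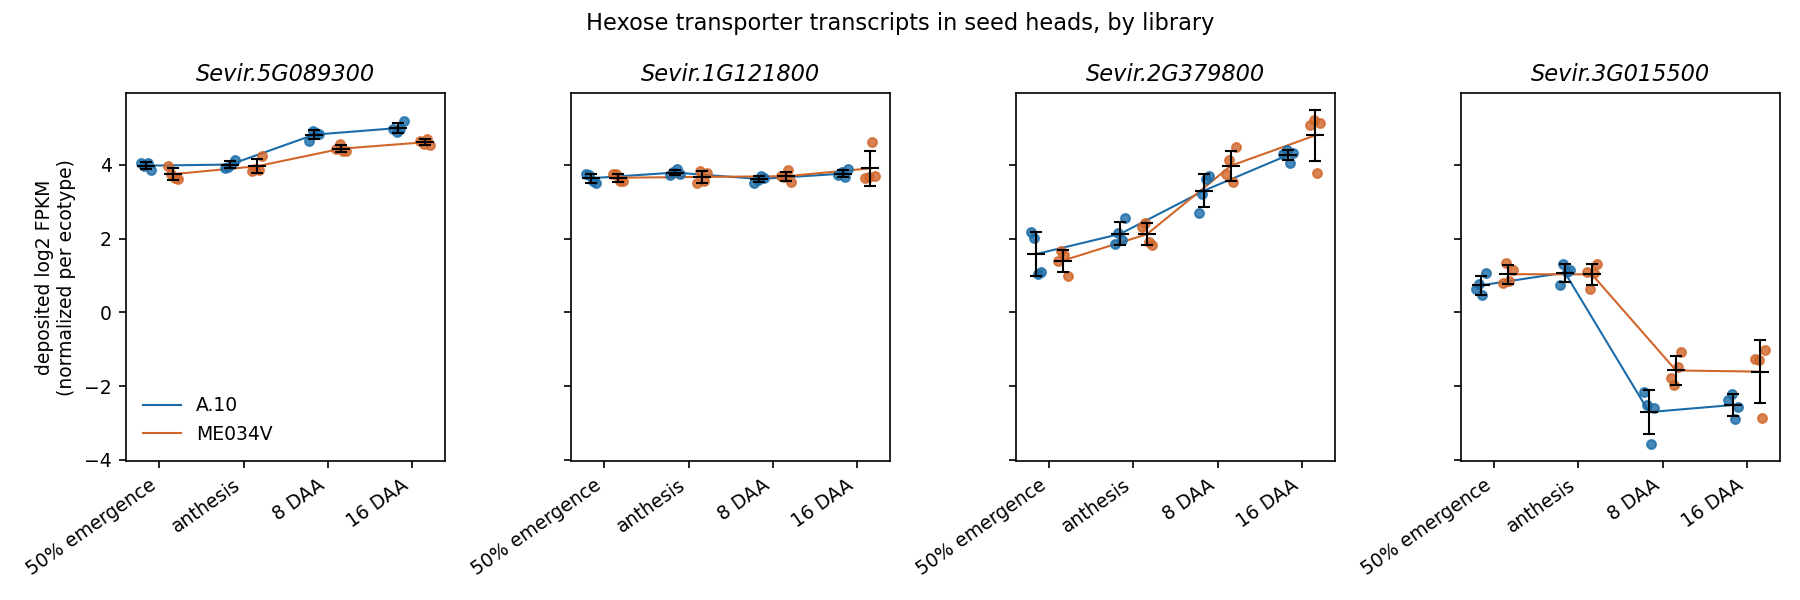
Deposited log2 FPKM (vertical axis, normalized per ecotype) of the 4 hexose transporter loci at the 4 stages; points are libraries, black marks and bars are the mean and SD of 4 libraries, and lines join the means of A.10 (blue) and ME034V (orange). *Sevir.5G089300* and *Sevir.2G379800* lay higher after anthesis, *Sevir.1G121800* stayed near 3.7, and *Sevir.3G015500* lay below -1 in every late library, with ME034V 16 DAA replicate 3 apart from its group at 4.61 for *Sevir.1G121800*, 3.78 for *Sevir.2G379800* and -2.87 for *Sevir.3G015500*.

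The order of the 4 loci changed with development. At 50% emergence and anthesis it was *Sevir.5G089300*, *Sevir.1G121800*, *Sevir.2G379800* and *Sevir.3G015500* in both ecotypes. *Sevir.5G089300* exceeded *Sevir.1G121800* in 4 of 4 libraries of each early group, by 0.34 ± 0.11 log2 FPKM at 50% emergence in A.10 (SD of the within-library difference, n = 4) and by only 0.10 ± 0.10 in ME034V. This order depended on locus length, since in CPM *Sevir.5G089300* was higher in 1 of 4 A.10 libraries and 0 of 4 ME034V libraries at 50% emergence. At 8 DAA *Sevir.5G089300* exceeded *Sevir.1G121800* by 1.20 ± 0.09 in A.10. Per length, *Sevir.1G121800* and *Sevir.2G379800* were not separated at 8 DAA, with *Sevir.1G121800* higher in 3 of 4 A.10 libraries and *Sevir.2G379800* higher in 3 of 4 ME034V libraries. In CPM *Sevir.1G121800* was higher in 4 of 4 A.10 libraries, and *Sevir.2G379800* in 0 of 4 ME034V libraries.

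At 16 DAA the order in A.10 was *Sevir.5G089300*, *Sevir.2G379800*, *Sevir.1G121800* and *Sevir.3G015500*, each step holding in 4 of 4 libraries. *Sevir.2G379800* exceeded *Sevir.1G121800* by 0.51 ± 0.10 per length, although its CPM was lower in 4 of 4 libraries. In ME034V *Sevir.2G379800* was above *Sevir.5G089300* at 16 DAA in 3 of 4 libraries, by a mean of 0.18 ± 0.75 (n = 4), so with all libraries the top 2 loci did not differ beyond their spread. The exception was replicate 3, where *Sevir.2G379800* lay 0.94 below. Without it *Sevir.2G379800* was higher in 3 of 3 libraries, by 0.56 ± 0.12 (n = 3). This order too depended on locus length, since in CPM *Sevir.2G379800* was above *Sevir.5G089300* in 0 of 4 ME034V libraries.

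For the family as a whole, CPM was divided by locus length in kilobases and summed over the 16 loci in each library, since the A.10 table of log2 FPKM used here holds 15 of them. The summed CPM per kilobase was 89.0 ± 7.2 at 50% emergence and 124.6 ± 7.8 at 16 DAA in A.10, and 82.4 ± 6.1 and 132.4 ± 4.3 in ME034V (SD, n = 4). The 4 loci made up 37.9% ± 1.1 of this sum at 50% emergence and 52.9% ± 1.4 at 16 DAA in A.10, and 36.5% ± 1.3 and 52.0% ± 4.1 in ME034V. Without replicate 3 the last value was 53.8% ± 2.1 (SD, n = 3). The make-up of this share at 16 DAA differed in description. In A.10 *Sevir.5G089300* held 26.1% ± 1.3 and *Sevir.2G379800* 15.7% ± 1.5 at 16 DAA, while in ME034V they held 18.1% ± 1.1 and 22.1% ± 8.3. Without replicate 3 the share of *Sevir.2G379800* in ME034V was 26.3% ± 1.5. *Sevir.3G015500* held 2.15% ± 0.35 at anthesis in A.10 and 0.077% ± 0.030 at 16 DAA.

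**Figure D2:**
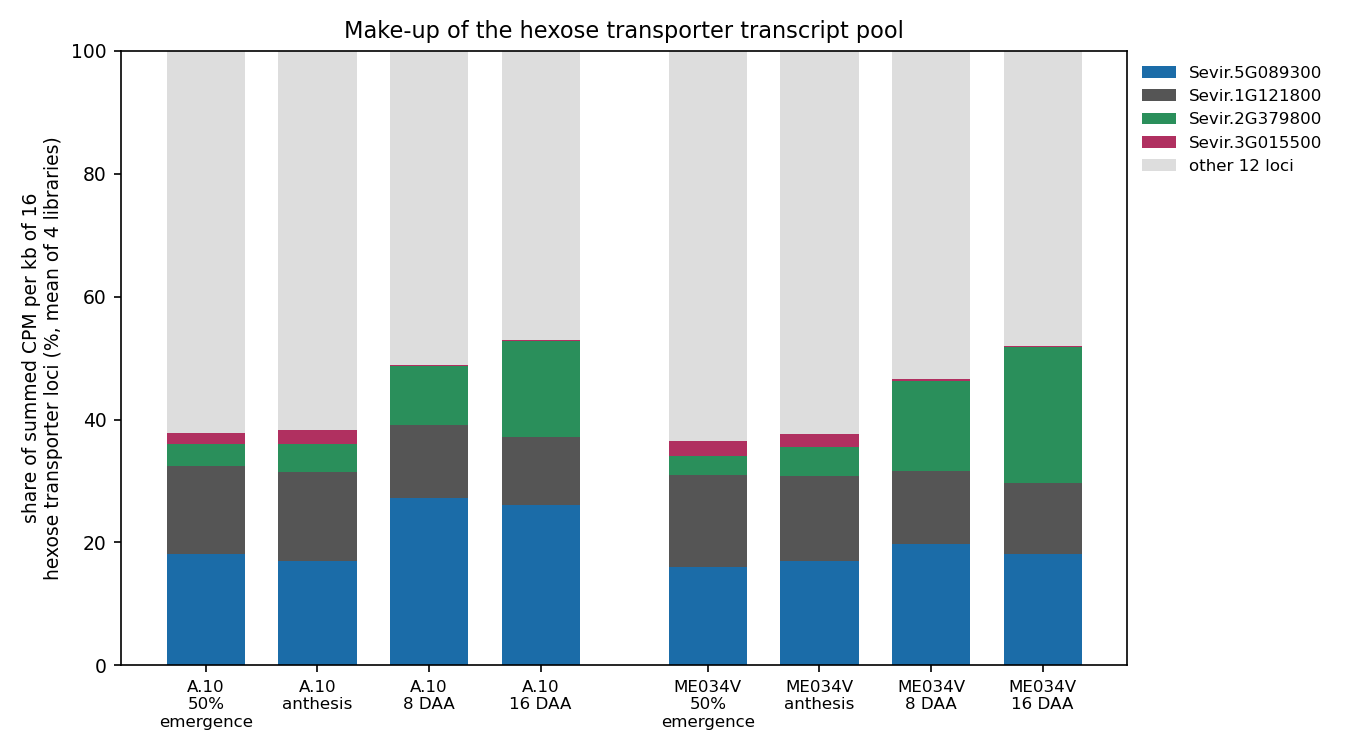
Share (%) of the summed CPM per kilobase of 16 hexose transporter loci held by each of the 4 loci and by the other 12, as the mean of 4 libraries for each ecotype and stage. The 4 loci together went from 37.9% to 52.9% in A.10 and from 36.5% to 52.0% in ME034V, with *Sevir.5G089300* holding more of the late share in A.10 and *Sevir.2G379800* more of it in ME034V.

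Transcript differences between ecotypes were tested at each stage, as ME034V over A.10, in a joint edgeR fit with p-values adjusted over 25264 loci. The rule for picking the loci names no such difference, but their stage profiles in both ecotypes were known. The p-values at each stage are thus not independent of the choice of loci. Reads of both ecotypes were mapped to the A.10 genome, so a difference in expression cannot be told apart from a difference in how well ME034V reads map. *Sevir.5G089300* was lower in ME034V at 50% emergence, 8 DAA and 16 DAA. At 8 DAA its A.10 libraries had 150.7, 182.6, 172.1 and 170.6 CPM, and its ME034V libraries 124.1, 136.2, 119.7 and 119.6. At 16 DAA the values were 184.5, 175.7, 187.3 and 217.0 CPM in A.10 against 144.0, 134.7, 150.5 and 134.2 in ME034V. The ecotypes did not overlap at either stage. The log2 fold change was -0.44 (SE 0.09, adjusted p = 0.00073 in edgeR) at 8 DAA and -0.44 (SE 0.09, adjusted p = 0.00055 in edgeR) at 16 DAA. Both calls held in all 32 fits that left out a library.

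At 50% emergence the difference in *Sevir.5G089300* was smaller and less secure, with a log2 fold change of -0.28 (SE 0.09, adjusted p = 0.038 in edgeR). The ecotypes overlapped, at 86.0 to 99.8 CPM in A.10 and 69.9 to 91.3 in ME034V. The call was lost without A.10 50% emergence replicate 1, 2 or 3 and without ME034V 50% emergence replicate 2, 3 or 4, with log2 fold changes from -0.28 to -0.24 and adjusted p from 0.072 to 0.14 in edgeR. At anthesis the log2 fold change was -0.10 (SE 0.09, adjusted p = 0.59 in edgeR), with an approximate 95% interval from -0.28 to 0.09.

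*Sevir.3G015500* was higher in ME034V after anthesis, in the stages where few transcripts of it remained. At 8 DAA its mean was 0.70 ± 0.26 CPM in ME034V and 0.22 ± 0.16 in A.10 (SD, n = 4), without overlap. The log2 fold change was 1.54 (SE 0.49, adjusted p = 0.023 in edgeR). At 16 DAA the means were 0.75 ± 0.42 and 0.26 ± 0.10 CPM, with overlap, and the log2 fold change was 1.55 (SE 0.48, adjusted p = 0.015 in edgeR). Without ME034V 16 DAA replicate 3 the latter was 1.88 (adjusted p = 0.0018 in edgeR). These values rest on 8 and 10 counts in all 4 A.10 libraries against 24 and 22 in ME034V. The 8 DAA call was lost without A.10 8 DAA replicate 3 (1.21, adjusted p = 0.10 in edgeR), A.10 8 DAA replicate 4 (1.53, adjusted p = 0.052 in edgeR) or ME034V 8 DAA replicate 4 (1.29, adjusted p = 0.12 in edgeR). The 16 DAA call was lost without A.10 16 DAA replicate 4 (1.46, adjusted p = 0.057 in edgeR) or ME034V 16 DAA replicate 4 (1.26, adjusted p = 0.11 in edgeR). Up to anthesis, values were 0.26 (SE 0.24, adjusted p = 0.58 in edgeR) at 50% emergence and -0.09 (SE 0.24, adjusted p = 0.97 in edgeR) at anthesis.

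*Sevir.2G379800* passed the test between ecotypes at 0 of 4 stages with all libraries, in edgeR and in DESeq2, with an unadjusted p under 0.05 in edgeR at 2 stages, 8 and 16 DAA. At 16 DAA the A.10 libraries had 48.1, 52.1, 41.1 and 50.0 CPM and the ME034V libraries 80.5, 88.1, 32.5 and 84.4. Of the ME034V libraries, 3 were thus above every A.10 library and replicate 3 was below them all. The log2 fold change was 0.58 (SE 0.25, adjusted p = 0.088 in edgeR), and without replicate 3 it was 0.82 (SE 0.22, adjusted p = 0.0046 in edgeR). At 8 DAA it was 0.63 (SE 0.26, adjusted p = 0.087 in edgeR), which became adjusted p = 0.029 in edgeR at the same size without that library. At 50% emergence and anthesis the log2 fold changes were -0.40 (SE 0.31, adjusted p = 0.48 in edgeR) and -0.12 (SE 0.30, adjusted p = 0.88 in edgeR).

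*Sevir.1G121800* differed between ecotypes by -0.05, -0.17, 0.02 and 0.15 on the log2 scale over the 4 stages, with adjusted p from 0.46 to 0.93 in edgeR. The approximate 95% intervals together ran from -0.44 to 0.42. At 16 DAA the sign rested on replicate 3, the value without it being -0.15 (SE 0.09, adjusted p = 0.21 in edgeR). Of the 4 loci, 1, 0, 2 and 2 were called at 50% emergence, anthesis, 8 DAA and 16 DAA. Of all loci tested, 15.5%, 14.3%, 21.8% and 28.4% were called in the same comparisons, and 4 against 4 libraries did not overlap in CPM at 20.2%, 20.1%, 24.7% and 24.2%.

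Whether the change over development differed between ecotypes was tested as the late minus early change of ME034V less that of A.10. The loci were not picked for such a difference, but their stage profiles in both ecotypes were known. The p-values of this test are thus not independent of the choice of loci. It was larger in ME034V for *Sevir.2G379800*, by 0.86 on the log2 scale (SE 0.28, adjusted p = 0.038 in edgeR), whose late level stood further above its early level. For *Sevir.3G015500* the difference was 1.46 (SE 0.38, adjusted p = 0.010 in edgeR), the late level of A.10 standing further below its early level than that of ME034V. These are 2 of 4 loci, beside 13.9% of all loci tested. The value for *Sevir.5G089300* was -0.25 (SE 0.09, adjusted p = 0.076 in edgeR) and that for *Sevir.1G121800* 0.20 (SE 0.14, adjusted p = 0.37 in edgeR).

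The difference in *Sevir.3G015500* held in 32 of 32 fits with a library left out, with values from 1.30 to 1.68. Its late levels still rest on 8 and 10 counts in all 4 A.10 libraries against 24 and 22 in ME034V, so its size is rough. The difference in *Sevir.2G379800* held in 17 of 32. It was lost without A.10 50% emergence replicate 1 or 2, anthesis replicate 4, 8 DAA replicate 1 or 2, or 16 DAA replicate 3. In ME034V it was lost without 50% emergence replicate 1 or 4, anthesis replicate 3 or 4, 8 DAA replicate 2 or 4, or 16 DAA replicate 1, 2 or 4, with values from 0.74 to 0.86 and adjusted p from 0.051 to 0.091 in edgeR over these 15 fits. Without ME034V 16 DAA replicate 3 it was 0.99 (adjusted p = 0.0041 in edgeR). For *Sevir.5G089300*, leaving out A.10 8 DAA replicate 1 gave -0.27 (adjusted p = 0.045 in edgeR). Over the 3 single steps between neighbouring stages, 0 of 12 tests of the 4 loci passed in edgeR and 0 in DESeq2. Of all loci, 0.119%, 2.13% and 0.139% passed in the 3 steps, at adjusted p under 0.05 in edgeR. At an unadjusted p under 0.05 in edgeR were 2 of the 12 tests, a threshold not counted over all loci. For *Sevir.3G015500* from anthesis to 8 DAA the difference was 1.63 (SE 0.55, adjusted p = 0.12 in edgeR), and 2.07 (adjusted p = 0.049 in edgeR) without A.10 8 DAA replicate 1.

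**Figure D3:**
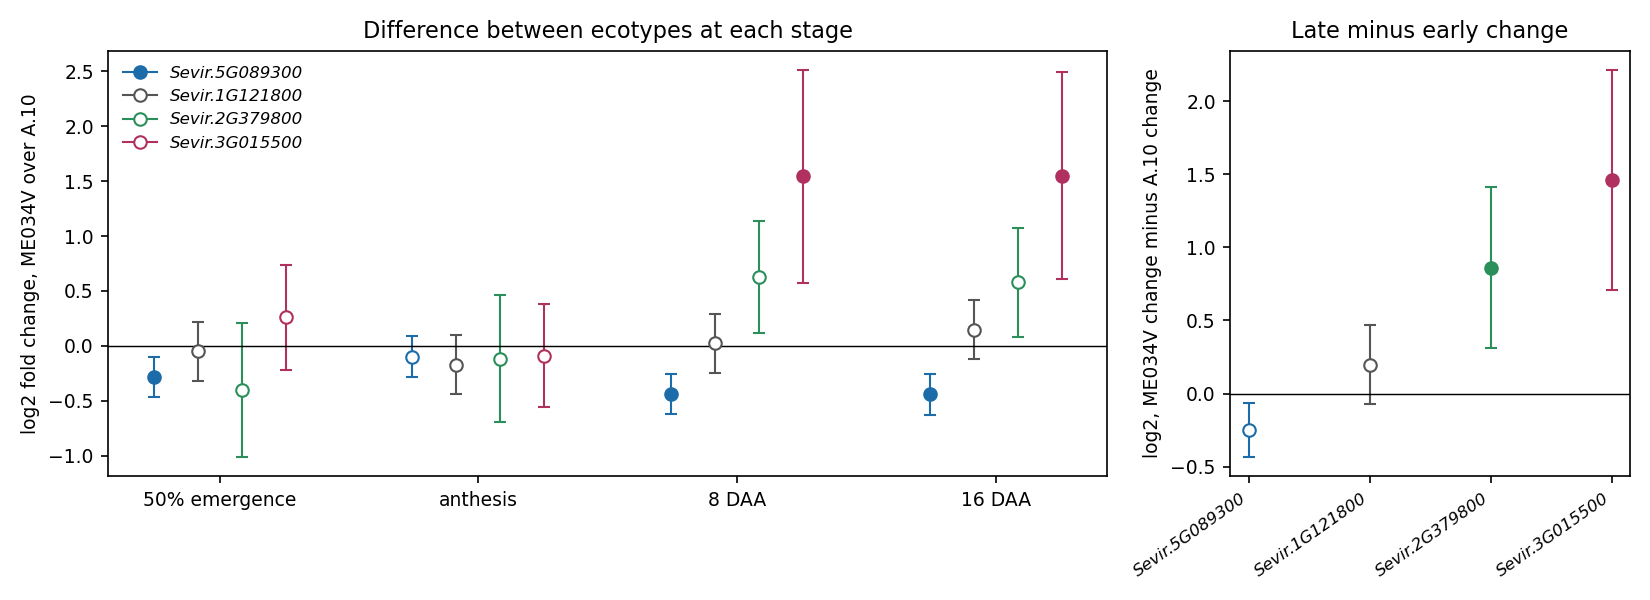
Left, log2 fold change of ME034V over A.10 at each stage for the 4 loci; right, the difference between the ecotypes in the late minus early change. Bars are approximate 95% intervals and filled points passed the edgeR test (adjusted p under 0.05). *Sevir.5G089300* was lower in ME034V at 50% emergence (-0.28), 8 DAA (-0.44) and 16 DAA (-0.44), and *Sevir.3G015500* was higher at 8 DAA (1.54) and 16 DAA (1.55).

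The other 12 loci of the family changed in both directions over development. In A.10, 11 of them passed the filter, of which 3 rose, 6 fell and 2 were not called between early and late stages, where 41.5% of all loci rose and 35.5% fell, with a median log2 fold change of -0.26. The calls were 81.8% of those tested, beside 77% of all loci, whose median was 0.08. In ME034V 5 rose, 5 fell and 2 were not called, where 34.2% of all loci rose and 32.4% fell, with a median of -0.13, beside 66.6% called and a median of 0.03 over all loci. The largest rise in A.10 was that of *Sevir.3G145100* (1.37, SE 0.10, adjusted p = 1.2e-09 in edgeR) and the largest fall that of *Sevir.9G273100* (-1.47, SE 0.18, adjusted p = 1e-06 in edgeR). In ME034V the change of *Sevir.9G273100* was -0.85 (SE 0.36, adjusted p = 0.048 in edgeR). At 16 DAA there it had 5.06 ± 5.49 CPM, and without replicate 3 of that group the change was -1.41 (adjusted p = 5.8e-05 in edgeR). The smallest changes were those of *Sevir.3G136100* in A.10 (0.09, SE 0.06, adjusted p = 0.16 in edgeR) and *Sevir.9G398400* in ME034V (-0.04, SE 0.20, adjusted p = 0.86 in edgeR). The drop of *Sevir.3G015500* was the largest fall among the 16 loci in each ecotype, as a description.

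**Figure D4:**
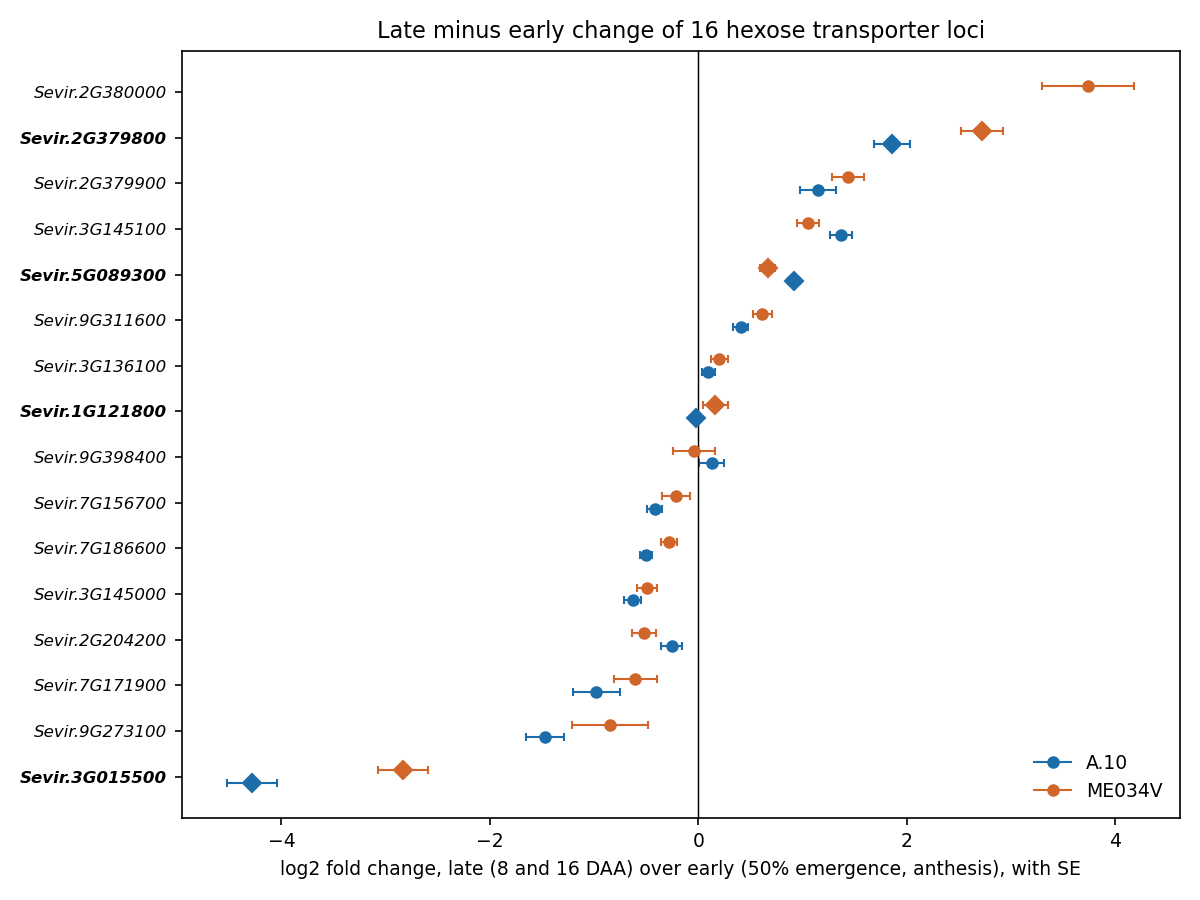
Log2 fold change of the late over the early stages (horizontal axis, with SE) for the 16 hexose transporter loci in A.10 (blue) and ME034V (orange); diamonds and bold names mark the 4 loci described here, and *Sevir.2G380000* did not pass the filter in A.10. Values ran from -4.28 (*Sevir.3G015500*, A.10) to 3.74 (*Sevir.2G380000*, ME034V).

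*Sevir.2G379800* has 2 hexose transporter loci as neighbours on chromosome 2. *Sevir.2G379900* (43076260 to 43078997, minus strand) lies 10412 bp away with 0 loci between, and *Sevir.2G380000* (43080818 to 43082847, minus strand) follows after a further 1820 bp. Only fragments with a single mapping were counted, so sequence shared between these copies would be lost from their counts, and how much was lost is unknown. All 3 loci were higher late than early. *Sevir.2G379900* rose by 1.15 (SE 0.17, adjusted p = 7.7e-06 in edgeR) in A.10 and by 1.44 (SE 0.15, adjusted p = 3.2e-07 in edgeR) in ME034V. *Sevir.2G380000* was barely detected, with 0 to 3 counts in every early library and 3 to 27 counts in all but 1 late library, A.10 8 DAA replicate 2, which had 0. In ME034V its late minus early value was 3.74 (SE 0.44, adjusted p = 1.1e-06 in edgeR), the largest rise there, and a rough value given the counts. Over 32 libraries, the log2 CPM of *Sevir.2G379800* correlated with those of *Sevir.2G380000* (Pearson r = 0.820) and *Sevir.2G379900* (0.746), as a description of libraries that share stages.

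*Sevir.2G379900* was higher in ME034V at all 4 stages, unlike *Sevir.2G379800*. The log2 fold changes were 0.78 (SE 0.25, adjusted p = 0.030 in edgeR), 1.43 (SE 0.25, adjusted p = 6.4e-05 in edgeR), 1.69 (SE 0.22, adjusted p = 8.7e-07 in edgeR) and 1.12 (SE 0.21, adjusted p = 0.00017 in edgeR) from 50% emergence to 16 DAA. In ME034V 16 DAA replicate 3 it had 23.0 CPM, within the 19.3 to 28.0 CPM of the other 3, and *Sevir.2G380000* had 1.79 CPM within 1.34 to 2.96. *Sevir.2G379800* thus stood apart in that library without its neighbours. Of the 12 other loci, 3, 3, 3 and 5 were called between ecotypes over the 4 stages, beside the 15.5%, 14.3%, 21.8% and 28.4% of all loci. The 1 locus called lower in ME034V at every stage was *Sevir.9G398400*, named here after its values were seen, with log2 fold changes from -1.84 to -1.49. None of the 12 was called for a difference in the late minus early change, where 13.9% of all loci were. DESeq2 also called 0. In edgeR, 1 of the 12, *Sevir.7G186600*, was below an unadjusted p of 0.05.

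**Figure D5:**
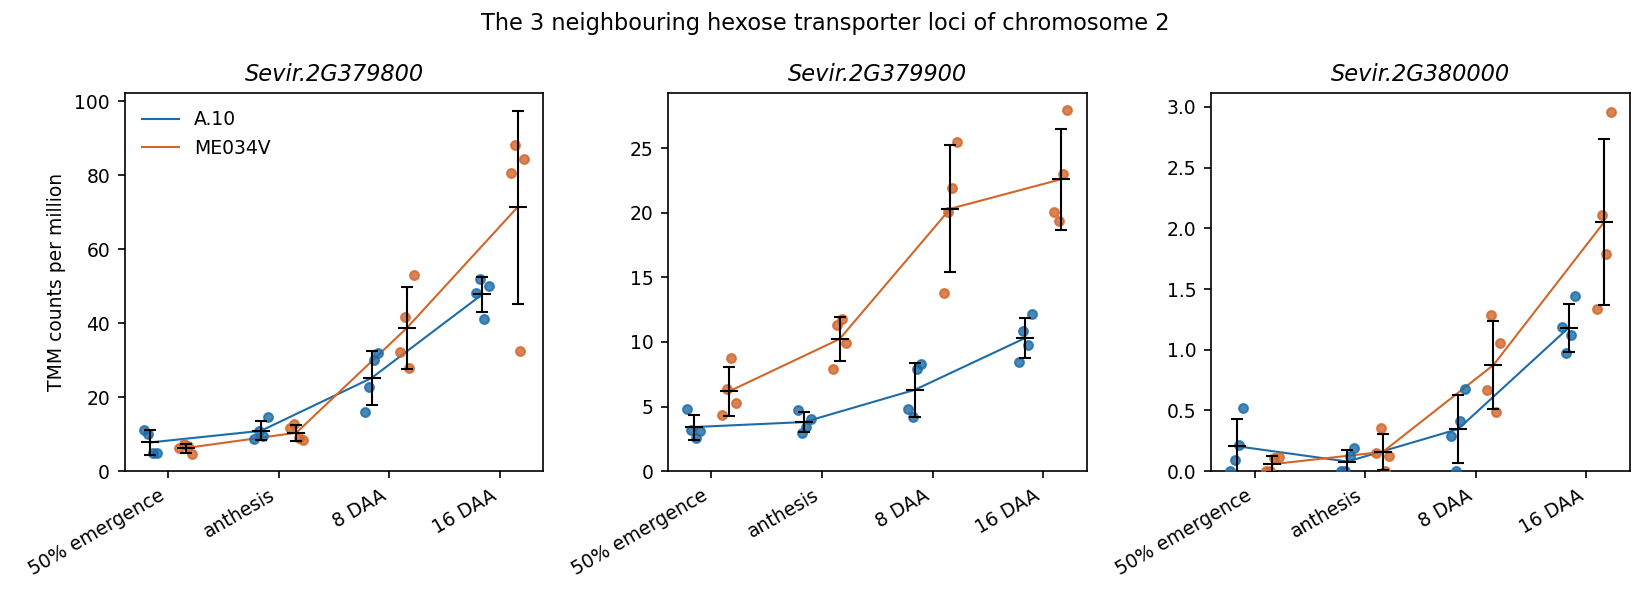
TMM-scaled CPM (vertical axes, each panel with its own scale) of *Sevir.2G379800* and its neighbours *Sevir.2G379900* and *Sevir.2G380000* by stage; points are libraries, black marks and bars the mean and SD of 4. All 3 were higher at 16 DAA than at 50% emergence, *Sevir.2G379900* was higher in ME034V at every stage, and in ME034V 16 DAA replicate 3 the low value of 32.5 is seen in the first panel alone.

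Cell wall invertases release the hexoses that these transporters can carry. Of the 9 loci listed for that family, 6 rose, 1 fell and 2 were not called between early and late stages of A.10. Their median log2 fold change was 1.37. In ME034V 7 rose and 2 fell (median 1.53). Of all loci, 41.5% rose and 35.5% fell in A.10, 77% being called. In ME034V 34.2% of all loci rose and 32.4% fell, 66.6% being called. The most abundant of the 9 invertase loci in CPM was *Sevir.3G029300*. It had 14.3 ± 2.7 CPM at 50% emergence and 51.2 ± 1.7 at 16 DAA in A.10 (SD, n = 4). The ME034V values were 11.6 ± 2.8 and 56.9 ± 7.1 (SD, n = 4).

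Among the 177 loci of all the study's lists, those most like each of the 4 in log2 CPM over the 32 libraries were found by Pearson r, given without a test because libraries of 1 stage share their state and depth. For *Sevir.5G089300* they were the ADP-glucose pyrophosphorylase locus *Sevir.3G134900* (r = 0.956) and the starch synthase locus *Sevir.4G063400* (0.945), families of the starch pathway. For *Sevir.2G379800* they were a glucosidase locus, *Sevir.2G281200* (0.959), and the aquaporin *SvNIP2;1* (0.928). *Sevir.3G015500* was most like the aquaporins *SvTIP4;1* (0.970) and *SvNIP1;1* (0.946). Profiles of this kind were common, as 418, 333 and 1270 of 25263 loci had r above 0.9 with the same 3 transporters.

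*Sevir.1G121800* had no such partner. Its 2 most like listed loci were the glucosidase locus *Sevir.3G227600* (r = 0.570) and the neutral invertase locus *Sevir.9G429500* (0.559), and 0 of 25263 loci had r above 0.9. Within the 4, *Sevir.5G089300* and *Sevir.3G015500* ran most strongly in opposite directions (r = -0.911), and *Sevir.5G089300* and *Sevir.2G379800* had r = 0.791.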

How the data were processed

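RNA-seq of whole seed heads covered 32 libraries, grouped by ecotype and stage from the labels. The authors trimmed paired reads of 125 bp, mapped them with Subjunc (Subread 1.6.2, per the submitters' processing notes) and kept single mappings. The deposited counts are whole fragments for each of 38334 v2.1 loci, which the authors obtained with featureCounts 1.5.0-p1, ignoring strand, over the full interval of a locus. For each ecotype on its own, the authors turned TMM-scaled counts into the deposited log2 FPKM with edgeR, using the same interval as gene length.

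Counts were tested here with edgeR 4.0.16 in R 4.3.3 (quasi-likelihood, TMM) after removing loci without CPM over 1 in 3 or more libraries, leaving 23984 in A.10, 24144 in ME034V and 25264 jointly, with Benjamini-Hochberg adjustment over all of them and a threshold of 0.05. SE was derived from the log2 fold change and the F statistic, and approximate 95% intervals follow from it. Both are rough for low counts. Family sums and shares were computed here from TMM-scaled CPM per kilobase of locus, not from the deposited log2 FPKM. Replicates are separate pools of plants. Alternatives were DESeq2 1.42.0, its size factors, library totals, no filter, a CPM minimum of 5 in 4 libraries, a replicate block, limma 3.58.1 on log2 FPKM, a joint fit, the 8 libraries of a stage alone and each library left out. On counts simulated for the ecotype difference in late minus early change over 25264 loci, 75% of changes of log2 1 and 90.6% of log2 2 were recovered, with 8 false calls. For the ecotype difference at 50% emergence, 61.6% and 97.9% were recovered, with 6 false calls. Each simulation changed 200 loci and left the others without a difference between groups. In the data 3506 and 3907 loci were called in these comparisons, so the rates need not hold for them. Changes below log2 1 were not simulated.

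The 4 loci and all lists were chosen with earlier results of these data known, and the study's lists had been filtered on expression in these libraries. Named loci are the 4, their neighbours in the family, the largest and smallest late minus early changes of the other 12, the most abundant cell wall invertase, and the 2 listed loci most like each of the 4. The RefSeq gene table matched 0 of the locus identifiers, and sequences are not used here.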

Additional observations from a re-analysis of the deposited data

Results flagged for a closer look

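In 4 of the 32 groups of 4 libraries (4 loci, 8 groups each), a single library lay far from the other 3 by Dixon's criterion, which chance flags in about 5% of groups. Of these, 3 were the same library, ME034V 16 DAA replicate 3, with log2 FPKM of 4.61 for *Sevir.1G121800* (others 3.65 to 3.69), 3.78 for *Sevir.2G379800* (others 5.08 to 5.21) and -2.87 for *Sevir.3G015500* (others -1.28 to -1.02). The library also had the lowest starch pathway sum of its group, 4602 CPM, and its part in these values was not tested. For *Sevir.5G089300*, ME034V anthesis replicate 4 had 4.25, with the others at 3.84 to 3.89.

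The change from early to late stages differed between ecotypes by the interaction test for *Sevir.2G379800* (0.86 on the log2 scale, adjusted p = 0.038 in edgeR) and *Sevir.3G015500* (1.46, adjusted p = 0.010 in edgeR). Stage profiles in both ecotypes were known when the loci were picked, so these p-values are not independent of the choice.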

How the results depend on the processing

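Scaling mattered most for stage changes. Library totals in place of TMM shifted the median of all loci by -0.21 (log2) for late minus early in both ecotypes, and gave -0.24 for *Sevir.1G121800* and 0.71 for *Sevir.5G089300* in A.10 and 0.45 for *Sevir.5G089300* in ME034V, so the steadiness of *Sevir.1G121800* in A.10 is relative to TMM. At 50% emergence they turned the ecotype difference of *Sevir.1G121800* to 0.0068 and left that of *Sevir.5G089300* uncalled (-0.23, adjusted p = 0.11 in edgeR), as did no filter (-0.28, adjusted p = 0.079 in edgeR). Without a filter the ecotype difference of *Sevir.3G015500* in the 16 minus 8 DAA change became -0.00070 (0.0071 with it). Limma on log2 FPKM gave -3.52 for the A.10 late minus early change of *Sevir.3G015500*. The late ecotype differences of *Sevir.5G089300* (7 of 7 alternatives each), those of *Sevir.3G015500* (6 of 6 each, the locus being filtered out of the fits on 8 libraries) and both differences in late minus early change (6 of 6 each) kept their calls. The replicate numbers were checked as a block. Same-numbered libraries of an ecotype had correlated deviations (r above 0.1) in 6 of 48 pairs (median 0.026), beside 16 of 144 pairs of unlike number. Between ecotypes the same held in 12 of 64 same-numbered pairs (median 0.026, highest 0.41), beside 15 of 192 of unlike number (median -0.0082). Whether the numbers pair the samples is thus not settled. The block changed no call of the 4 loci, giving -0.28 (adjusted p = 0.0496 in edgeR) for *Sevir.5G089300* at 50% emergence, for example.

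Counts over all loci moved by over 1.5 times for ME034V 16 against 8 DAA (1619, joint fit 2668), the ecotypes at 16 DAA (7181, 8 libraries alone 4435) and, with DESeq2, the differences in change to anthesis (30 to 86) and from 8 to 16 DAA (35 to 166). With a library left out, these counts ran from 828 to 1831 (ME034V 16 against 8 DAA), from 8 to 44 (change to anthesis), from 301 to 1472 (anthesis to 8 DAA, 537 with all) and from 15 to 259 (8 to 16 DAA).

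With a library left out, ecotype differences ran from -0.37 to -0.24 for *Sevir.5G089300* at 50% emergence and, at anthesis, from -0.23 to 0.076 for *Sevir.2G379800* and from -0.22 to 0.028 for *Sevir.3G015500*. At 8 DAA they ran from -0.027 to 0.074 for *Sevir.1G121800*, from 0.44 to 0.77 for *Sevir.2G379800* and from 1.21 to 1.99 for *Sevir.3G015500*, and at 16 DAA from -0.15 to 0.24, from 0.46 to 0.82 and from 1.26 to 1.88. Differences in change from 8 to 16 DAA ran from -0.17 to 0.22 for *Sevir.1G121800*, from -0.045 to 0.062 for *Sevir.5G089300*, from -0.19 to 0.19 for *Sevir.2G379800* and from -0.44 to 0.34 for *Sevir.3G015500*. From anthesis to 8 DAA the range for *Sevir.3G015500* was 1.30 to 2.07, and late minus early it was 0.74 to 0.99 for *Sevir.2G379800* and -0.27 to -0.19 for *Sevir.5G089300*. The ME034V 16 minus 8 DAA change of *Sevir.1G121800* ran from -0.024 to 0.37. In A.10, the range for *Sevir.3G015500* was -5.00 to -4.20 from anthesis to 8 DAA and -0.20 to 0.56 from 8 to 16 DAA. The cause of these changes was not tested. Exonic length was not run, since the count files give 1 interval per locus. Depth limits *Sevir.3G015500* after anthesis, at 0 to 10 counts per library.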
